A study of Mus musculus with 3 samples.

Results

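The suture mesenchyme transcription factors Twist1, Twist2, Tcf12, Foxc1, Foxc2, Zic1, Prrx1, Six2, Alx4 and Erf were followed in mouse posterior frontal sutures, the midline seam between the frontal bones. These 10 genes were taken by name from the array files, where they are read by 16 of 55680 probes, among 35019 genes in all. Expression was measured on 3 one-colour Agilent arrays, with 1 array of total RNA for each group. All mice were C57BL/6. The groups were wild type (Runx2+/+) at postnatal day 5 (P5), wild type at P7 and Runx2+/- at P7, heterozygous for the gene of the transcription factor required to form osteoblasts. The labels do not describe the Runx2 allele, the number of mice behind an array or their sex. With 1 array per group there is no replicate check and no p-value, and every difference is between 2 hybridised samples. In a whole suture, fewer cells of a type and less RNA per cell cannot be told apart.

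Cranial sutures remain unfused as long as their mesenchyme keeps a pool of undifferentiated cells, while cells at the bone fronts become osteoblasts. The factors named here act in that mesenchyme. Twist1 and Twist2 are basic helix-loop-helix proteins that hold back osteoblast differentiation and can inhibit Runx2, and Tcf12 is an E protein with which they pair. Foxc1 and Foxc2 are forkhead proteins, Zic1 is a zinc finger protein, Prrx1, Six2 and Alx4 are homeobox proteins, and Erf is an Ets-family repressor controlled by Erk. In people, loss of TWIST1, TCF12 or ERF and altered ZIC1 cause early suture fusion, and loss of ALX4 leaves defects in skull bone.

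Levels are log2 values relative to a reference level of the same array, the 75th percentile of the 15853 probes that were well above background on all 3 arrays. That level was 491 intensity units on the P5 Runx2+/+ array, 225 on the P7 Runx2+/+ array and 1294 on the P7 Runx2+/- array. All 10 genes had a probe well above background on at least 1 array and 9 had it on all arrays, as did 14 of the 16 probes. Levels of different probes are not on a common scale, so each difference is taken within a probe. Where levels of several genes are summed, the sum is weighted to the brightest probes and is compared only between arrays. A gene is represented by its brightest probe and a difference counts from 2-fold, which is 1 on the log2 scale. Spots of the same probe gave an SD of 0.21 for the age difference and 0.19 for the genotype difference, or 0.30 and 0.27 among the dimmest of these probes. Different probes of the same gene varied more, and their SD (root mean square) was 0.46 for age over 2351 genes and 0.56 for genotype over 2361 genes.

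All 9 markers of suture fibroblasts were well above background on each array, as were all 8 osteoblast markers. Of 10 skeletal muscle markers Myh8 and Acta1 were above background on all arrays, and Myod1, Myog and Pax7 were so on none. The P7 Runx2+/+ array was the dimmest, with 29.2% of probes well above background against 40.1% at P5 and 47.3% on the Runx2+/- array. The summed level of 8 neutrophil markers was 93.5, 7.82 and 33.6 times the reference level on the P5, P7 wild-type and Runx2+/- arrays. Xist had levels of -0.79 and -1.36 on the P5 and P7 wild-type arrays and -6.48 on the Runx2+/- array. The Y-linked Ddx3y had levels of -4.11 and -1.59 on the P5 and Runx2+/- arrays and missed the background criterion in the P7 wild type. Within 800 transcripts that carried several probes, probes nearer the 3′ end gave higher differences, with a median slope of 0.14 per kb for genotype and 0.20 per kb for age. The part of these array differences in the results below was not tested.

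Runx2, the targeted gene, had levels of -0.86 at P5, -1.85 at P7 and -2.30 in Runx2+/- when read by the brightest of its probes, at 44951128 to 44951187 of chromosome 17 (mm9). It was lowest in Runx2+/-, with a genotype difference of -0.46 and an age difference of -0.99. Its remaining probes missed the background criterion in the P7 wild type. Since the sources used here do not state what the allele lacks, these probes do not check the genotype.

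The Twist paralogs went opposite ways with genotype in the main processing, though not under another background correction, where both lay below 0. Their promoters are shown here because both were past 2-fold for genotype, in opposite directions, and Foxc2, also past it, is not in the promoter table used here. They run from 250 bases before to 50 after the annotated start, from RefSeq on build GRCm38.p6, at chr12:33957421-33957720 for Twist1 and chr1:91801211-91801510 for Twist2, plus strand, with capitals marking a CCAAT box.
Twist1: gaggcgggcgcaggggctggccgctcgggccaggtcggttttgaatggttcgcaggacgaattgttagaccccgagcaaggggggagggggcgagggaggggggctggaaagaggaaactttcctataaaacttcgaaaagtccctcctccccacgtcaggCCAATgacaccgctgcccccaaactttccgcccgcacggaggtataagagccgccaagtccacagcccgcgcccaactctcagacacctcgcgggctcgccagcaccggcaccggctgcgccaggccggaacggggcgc
Twist2: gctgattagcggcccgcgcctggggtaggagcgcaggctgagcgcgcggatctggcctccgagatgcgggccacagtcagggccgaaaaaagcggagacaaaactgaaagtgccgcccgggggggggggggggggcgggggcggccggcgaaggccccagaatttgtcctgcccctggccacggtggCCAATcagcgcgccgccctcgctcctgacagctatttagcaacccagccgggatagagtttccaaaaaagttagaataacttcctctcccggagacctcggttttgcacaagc
The box began 89 bases before the start of Twist1 and 63 bases before that of Twist2. A CCAAT match on either strand was present for 6 of the 8 factors in the table and in 37.4% of 32851 promoter windows of 300 bases. A Runx motif (TGTGGT on either strand) was found for 1 of the 8, Foxc1, and in 16.8% of all windows. An E-box (CANNTG, which reads the same on both strands), the site of helix-loop-helix pairs, was found for Tcf12 and Zic1, and in 72.3% of all windows. A factor with several promoter records counts where at least 1 holds the match. The motifs were chosen with earlier results known, and these matches describe letters only.

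Twist1 was read by 1 probe (chromosome 12, 34644411 to 34644470, plus strand, mm9). Its level was -1.80 at P5, -1.71 at P7 and -2.79 in Runx2+/-. The wild-type arrays differed by 0.09, less than the spot SD, and the Runx2+/- array was the lowest. The genotype difference of Twist1 was -1.08, or 2.11-fold lower in Runx2+/-, and its difference from the P5 array was -0.99. Each of the 8 osteoblast markers was past 2-fold in the same direction, where 15.0% of all genes were, their median being -2.08. Their summed level was 93.7, 135 and 25.6 times the reference level on the P5, P7 wild-type and Runx2+/- arrays. Their part in the Twist1 difference was not tested.

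Twist2, at chromosome 1, 93744519 to 93744577, plus strand, had levels of -3.43, -3.91 and -2.63 on the P5, P7 wild-type and Runx2+/- arrays. The Runx2+/- array was the highest and the P7 wild-type array the lowest. Twist2 was 1.28 higher in Runx2+/- than in wild type at P7, a 2.43-fold difference, and 0.80 higher than at P5. It was dim on the P7 Runx2+/+ array, at 14.9 intensity units against 14.1 for the dimmest probe that met the background criterion. The median genotype difference of the probes closest in brightness was 0.05. Under normexp, another background correction, the median over probes measured on both arrays was -0.46 and Twist2 stood at -0.32, above that median but below 0. A filter at 2 times the lowest detected signal left lower bounds of 0.36 for Twist2 and 0.90 for Foxc2. Twist1 was at -1.27 under normexp and at least 2-fold lower in all 10 alternatives that kept the threshold. It has 1 probe that passed each filter, so the filters and probe choices could not change its value. Scaled to the 75th percentile of all probes, Twist1 was only just past 2-fold.

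Tcf12 gave opposite answers with its probes. The first 30 bases of each are printed to show which stretches were read, with the place in the transcript that the files give.
Tcf12 probe at base 1848: gtggtgtacaaaatcagtctggaagtgttg
Tcf12 probe at base 4396: atttacaatagcattttaagagcatagtag
The brighter probe, at base 1848, had levels of -1.03, -2.09 and -2.93 on the P5, P7 wild-type and Runx2+/- arrays. Its age difference was -1.05, or 2.07-fold lower at P7, and its genotype difference was -0.85. The probe at base 4396 (chromosome 9, 71692310 to 71692369, minus strand) had levels of -3.04, -2.65 and -2.06, the reverse order. It was 0.39 higher at P7 than at P5 and 0.59 higher in Runx2+/-. The files place only 28 of the 60 bases of the brighter probe on the genome, at 71692059 to 71692086. On the minus strand this lies nearer the 3′ end than the other probe, which conflicts with its earlier place in the transcript. Tcf12 thus had no direction shared by its probes.

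Of the other proteins that pair with Twist factors or block such pairs, 8 were listed and 6 were measured. Tcf3, the E protein also known as E2A, had a genotype difference of -1.03 and an age difference of -0.36. It was the only gene of the list past 2-fold in either of these comparisons, among 5 with an order in each. Of all genes 15.0% were at least 2-fold lower for genotype and 3.80% for age. Id1, Id2 and Id3, which bind E proteins and keep them off DNA, stood at 0.14, 0.52 and 0.75 for genotype and at -0.44, 0.07 and -0.06 for age. Tcf4 lay at -0.18 and -0.30. Hand1 and Hand2 failed the background criterion on all arrays, and Id4 did so on the P7 Runx2+/+ array.

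**Figure D1:**
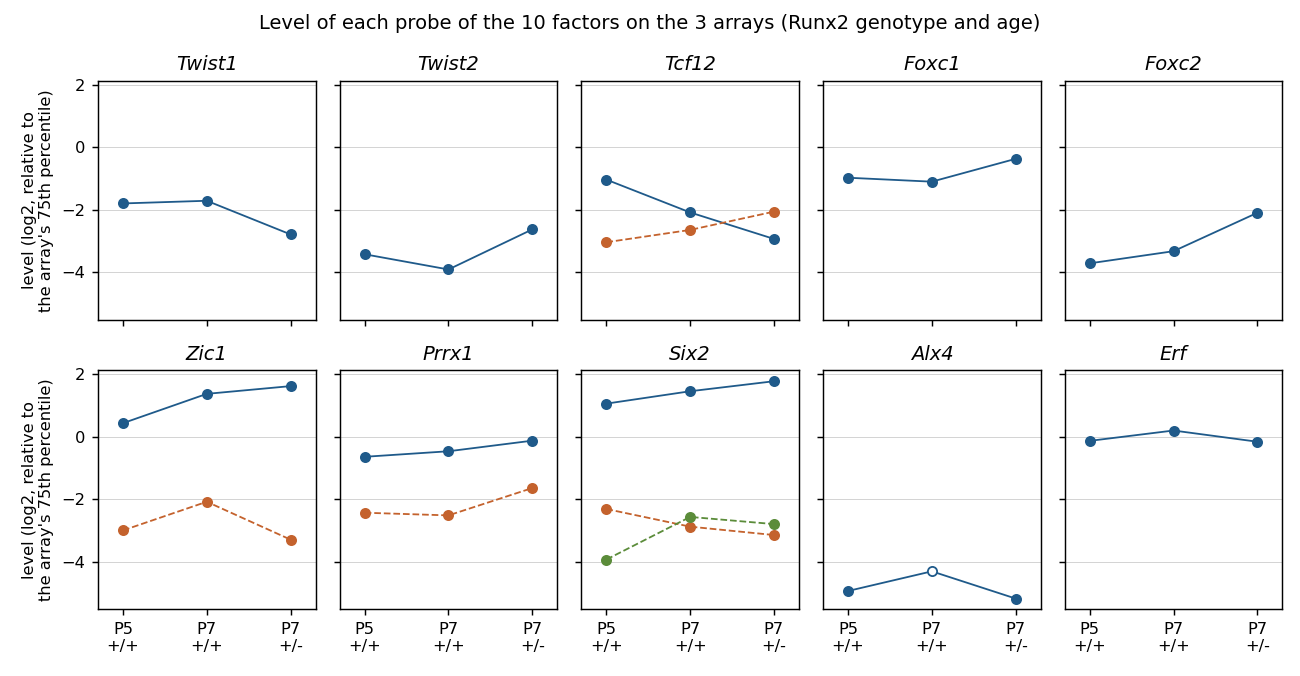
Level of each probe on the 3 arrays (log2, relative to the array's 75th percentile of detected probes), 1 panel per gene, with the brightest probe as a solid line, other probes dashed and open points where the probe was not well above background. The brightest Twist1 probe is lowest and those of Twist2, Foxc1 and Foxc2 are highest on the P7 Runx2+/- array, and the lines of Tcf12 cross. The dimmer Erf probe, above background on no array, is not drawn, and there are no error bars because each group has 1 array.

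The forkhead factors were higher in Runx2+/-. Foxc2, required for vessels, valves and the axial and skull skeleton, had levels of -3.72, -3.33 and -2.10 (chromosome 8, 123642693 to 123642752, plus strand). The level was highest on the Runx2+/- array, 1.23 above the P7 Runx2+/+ array (2.35-fold) and 1.62 above the P5 array (3.07-fold). Between the wild-type arrays it differed by 0.39. Foxc1, needed for the meninges and for growth of the skull bones, had levels of -0.97, -1.10 and -0.37 (chromosome 13, 31902423 to 31902482, plus strand). The wild-type arrays differed by -0.13, less than the spot SD, and Foxc1 was 0.73 higher in Runx2+/- than in wild type at P7, a 1.66-fold difference short of the threshold. Foxc2 was at 22.4 intensity units on the P7 Runx2+/+ array. It turned to -0.18 after normexp, where the median over all probes measured on both arrays was -0.46. Foxc1, at 105 units, was above 0 in all 10 alternatives, from 0.38 to 0.81. Foxc1 has 1 probe that passed each filter, so the filters and probe choices could not change its value.

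Markers of vessels and meninges, where forkhead factors are also known, were read on the same arrays. For genotype, 4 of 7 endothelial markers were past 2-fold upwards, Tek among them as a lower bound, and 1 downwards, where 3.80% and 15.0% of all genes were. Their median was 1.04, and their summed level was 14.0, 13.2 and 19.8 times the reference level on the P5, P7 wild-type and Runx2+/- arrays. Of 9 meningeal markers, 5 had an order for genotype, with a median of 0.55. Cldn11, a tight-junction protein, was 1.11 higher, and Crabp2 and Ptgds stood at 0.55 and -0.75. The summed level was 6.89, 2.02 and 2.28 on the 3 arrays, and Slc47a1 missed the background criterion on each. The part of these cells in the Foxc1 and Foxc2 differences was not tested.

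Zic1 was higher at P7 than at P5 in wild type with each of its probes, and its probes parted for genotype. The first 30 bases of the probes are given for the same reason as for Tcf12.
Zic1 probe at base 3048: atccgcatgtaaagggtctggtttattcat
Zic1 probe at base 1864: ctacctttgcaagatgtgcgataagtccta
The brighter probe, at base 3048 (chromosome 9, 91255425 to 91255484, minus strand), had levels of 0.43, 1.37 and 1.62 on the P5, P7 wild-type and Runx2+/- arrays. Its level was lowest at P5, and the P7 arrays differed by 0.25, a difference smaller than that between probes of a gene. The probe at base 1864 (91257301 to 91257360) had levels of -3.00, -2.08 and -3.30. The age difference was 0.94 with the first and 0.92 with the second, a 1.92-fold and a 1.89-fold difference. For genotype the second probe gave -1.21, or 2.32-fold lower in Runx2+/-. For age the meningeal markers had a median of -0.87 over 6 genes, 2 of them above 0, and their part in the Zic1 difference was not tested.

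Among the homeobox factors no brightest probe reached 2-fold. Prrx1, which marks skeletal progenitors of the sutures and limbs, had levels of -0.64, -0.47 and -0.13 with the probe at chromosome 1, 165175375 to 165175434, and -2.44, -2.52 and -1.65 with the probe at 165185408 to 165185467, both on the minus strand. The files assign these probes to different transcript variants. The Runx2+/- array was the highest with each, by 0.34 and 0.88 over the P7 Runx2+/+ array, and the wild-type arrays differed by 0.18 and -0.09. Its relative Prrx2 had age and genotype differences of 0.00, within the spot SD.

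Six2, best known as the factor that keeps kidney progenitors undifferentiated, was read by 3 probes on chromosome 17. The brightest (86083634 to 86083693, minus strand) had levels of 1.06, 1.46 and 1.78, lowest at P5 and highest in Runx2+/-. The probe at 86083986 to 86084045 had -3.94, -2.57 and -2.80 and was 1.37 higher at P7, while the probe at 86082307 to 86082366, taken from a cDNA clone, had -2.32, -2.88 and -3.15, an age difference of -0.57. For genotype they gave 0.32 with the brightest and -0.23 and -0.27 with the others. Alx4 (chromosome 2, 93518001 to 93518060, plus strand) was dim, with levels of -4.94 and -5.19 on the P5 and Runx2+/- arrays, and missed the background criterion on the P7 Runx2+/+ array. It has no order in the age or genotype comparison, and it differed by -0.24 between Runx2+/- and P5.

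Erf (chromosome 7, 26028347 to 26028406, minus strand) had levels of -0.13 at P5, 0.20 at P7 and -0.16 in Runx2+/-. The P7 Runx2+/+ array was the highest, with an age difference of 0.33 and a genotype difference of -0.36, and the Runx2+/- and P5 arrays differed by -0.03. The other Erf probe, at 26030525 to 26030584, missed the background criterion on all arrays. Dusp6, an Erk-induced phosphatase and so a readout of the pathway that controls Erf, had an age difference of -0.60 and a genotype difference of 0.87.

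**Figure D2:**
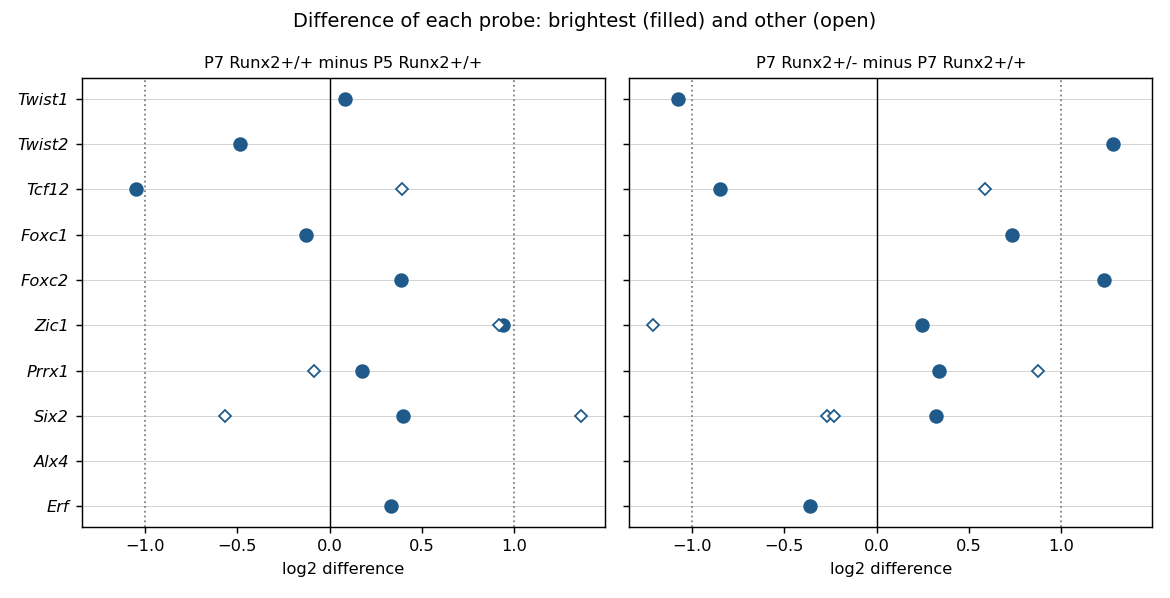
Log2 difference of every probe well above background on the arrays compared, for age (left) and genotype (right), with filled circles for the brightest probe of a gene and open diamonds for the others. Dotted lines mark 2-fold, and there are no error bars because each group has 1 array. Twist1 lies at -1.08 and Twist2 at 1.28 for genotype, and the probes of Tcf12, Zic1 and Six2 lie on either side of 0 there.

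Over the factors together the age differences were small. Of 9 with an order, 6 were higher at P7 than at P5 in wild type and 3 lower, with a median of 0.18 against -0.03 over all 14316 genes with an order. None was at least 2-fold higher, where 5.43% of all genes were, and Tcf12 was the only one at least 2-fold lower, where 3.80% of all genes were. Scaled to the 75th percentile of all probes, or by cyclic loess, Zic1 was past 2-fold and Tcf12 was not. The summed level of the brightest probes was 6.47 times the reference level at P5 and 8.37 times at P7. This sum is weighted to the factors with the brightest probes, Six2 and Zic1. Their age differences were 0.40 and 0.94, each short of 2-fold, so the sum does not describe the factors as a set.

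For genotype, 6 of 9 factors were higher on the Runx2+/- than on the P7 Runx2+/+ array and 3 were lower, with a median of 0.32 against 0.06 over all 14195 genes with an order. Twist2 and Foxc2 were at least 2-fold higher, or 2 of 9, where 3.80% of all genes were. Twist1 was at least 2-fold lower, or 1 of 9, where 15.0% of all genes were. The count became 0 higher and 2 lower after normexp, which moved the median over all probes measured on both arrays to -0.46. It became 2 higher and 2 lower with cyclic loess, because Tcf12 passed 2-fold there. Against the P5 Runx2+/+ array, which differs in age as well, the Runx2+/- array had 2 factors of 10 at least 2-fold higher, Foxc2 and Zic1, where 5.67% of all genes were, and Tcf12 at least 2-fold lower, where 18.6% of all genes were. The other probes of Zic1 and Tcf12 had the opposite sign there, at -0.30 and 0.98. The age and genotype comparisons share the P7 Runx2+/+ array, so a high or low value there moves them in opposite directions.

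**Figure D3:**
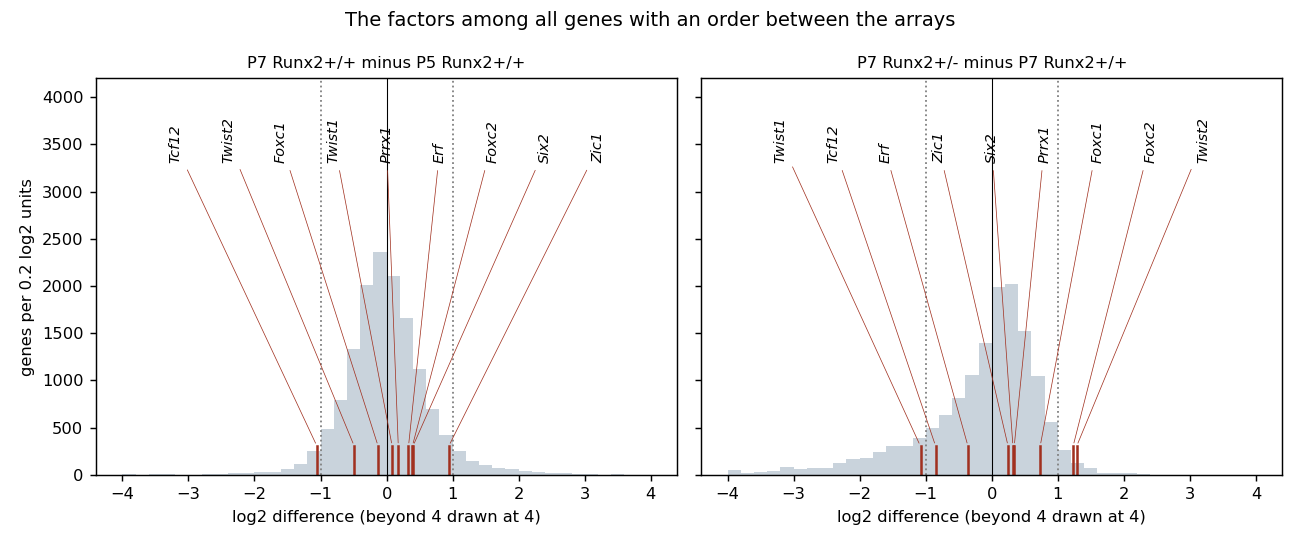
Number of genes per 0.2 log2 units of difference for age (left) and genotype (right) over every gene that could be ordered, with the brightest probe of each factor as a red mark. Dotted lines mark 2-fold. The genotype distribution has a long lower tail, and Twist2 and Foxc2 lie past the upper dotted line, where 3.80% of genes do.

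By sign, probes of a factor disagreed more often than not. Of the 4 factors with at least 2 probes in order, only Prrx1 had the same sign with all of them for genotype, and only Zic1 for age, whereas 63.5% and 59.3% of all genes with at least 2 such probes had. Signs of small differences count here too. Prrx1 for age (0.18 and -0.09) and Six2 for genotype (0.32, -0.23 and -0.27) lay within 2 spot SDs of 0 with every probe. In the pairs on the same transcript the probe nearer the 3′ end gave the higher genotype difference, by 1.46 for Zic1, 1.43 for Tcf12 and 0.55 for Six2. This was also the direction in 66.5% of the 800 transcripts. For age the same pairs differed by 0.02 for Zic1, 1.45 for Tcf12 and -0.97 for Six2. The Tcf12 order rests on the place in the transcript, with which the genome position of its brighter probe conflicts. With the mean over probes used in place of the brightest, the genotype median of the factors was -0.06. Twist1, Twist2, Foxc1, Foxc2 and Alx4 had 1 probe each, so this check could not be made for them.

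**Figure D4:**
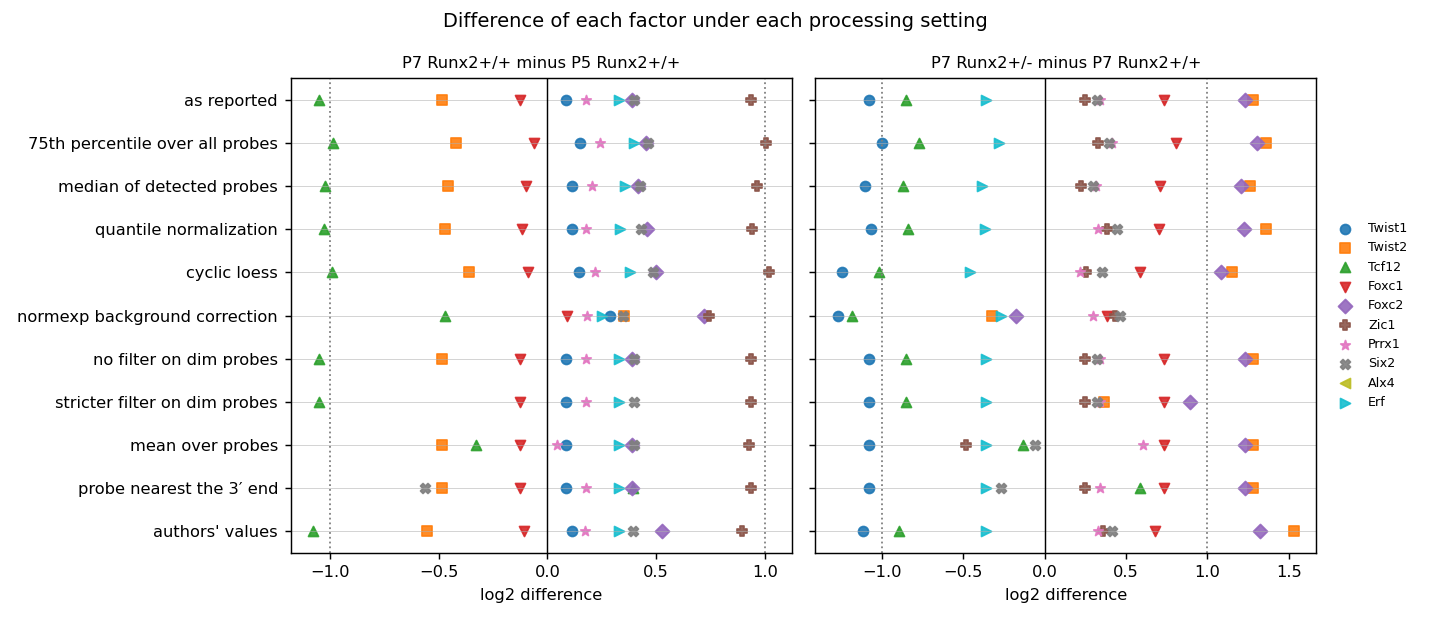
Log2 difference of each factor (symbols) under each processing setting (rows), for age (left) and genotype (right), with dotted lines at 2-fold. Twist1 stays left of -1 for genotype in every row, while Twist2 and Foxc2 move from 1.28 and 1.23 to -0.32 and -0.18 in the normexp row. Normexp also moved the genotype median over all probes measured on both arrays to -0.46. Filters and probe choices could not change Twist1, which has 1 probe.

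Of 23 genes of the same families 18 were measured. For genotype 15 had an order, 11 above 0 and 4 below, with a median of 0.29, and 2 were at least 2-fold higher and 0 lower, where 3.80% and 15.0% of all genes were. These were Elk3, an Ets-family factor of vessels and mesenchyme, at 1.25, and the forkhead gene Foxd1 at 1.04. For age the genes past 2-fold among 14 were Foxd1, 1.21 higher at P7, and Zic2, 1.32 higher. Of all genes 5.43% were at least 2-fold higher for age and 3.80% lower. Zic2 was dim, at 22.3 and 25.4 intensity units on the P5 and P7 wild-type arrays. The dimmest eighth of probes, where it lies, had a median age difference of 0.37. Ets2 and Zic5 stood at 0.92 and 0.58 for genotype, named after their values were seen. Foxf1, Foxf2, Shox2 and Six6 missed the background criterion throughout.

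Of 25 listed transcription factors of the skull outside these families, 18 had an order for genotype, of which 5 were past 2-fold downwards and 1 upwards, where 15.0% and 3.80% of all genes were, with a median of 0.03. Dlx5, which promotes osteoblast formation, stood at -3.08, Meis2 at -2.17 and Gli1, a target of hedgehog signalling, at -1.78. Meis2 was dim, at 27.7 and 35.5 intensity units on the P7 Runx2+/+ and Runx2+/- arrays. The dimmest eighth of probes, where Meis2 lies, had a median genotype difference of -0.69. Tbx15, a T-box factor of skeletal mesenchyme, was 1.36 higher. Tbx15 was named after its value was seen. Snai2, a regulator of mesenchymal state, and Nr2f2 stood at 0.86 and 0.94, and Msx1 and Msx2 at -0.13 and 0.03. For age 19 had an order. At least 2-fold higher were 2, Snai1 at 1.19 and Gsc at 1.11, where 5.43% of all genes were. At least 2-fold lower was 1, Dlx6, which was not well above background at P7, where 3.80% of all genes were. Gsc was dim, at 16.9 and 16.7 intensity units on the P5 and P7 wild-type arrays. The dimmest eighth of probes, where Gsc lies, had a median age difference of 0.37. These lists were chosen with earlier results of these arrays known.

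None of the suture genes that have been linked to the factors was measured as 2-fold apart in either comparison. Of all genes 18.8% were at least 2-fold apart for genotype and 9.23% for age. Of 14 listed, 10 had an order for genotype, with a median of -0.17. Of these, Spry1 is a lower bound of 0.39, since it missed the background criterion in the P7 wild type. For age 9 had an order, with a median of 0.27. Efna2 and Efna4, ephrins of the suture boundary, stood at -0.73 and -0.13 for genotype, Efnb1 at -0.86, Jag1, a Notch ligand, at -0.02, and the receptors Fgfr1 and Fgfr2 at -0.15 and -0.28. Axin2, Spry2 and Spry4 missed the background criterion on all arrays.

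For genotype 3 of 9 fibroblast markers lay above 0, with a median of -0.72, and Tnn (tenascin W) and Thy1 stood at -3.22 and -1.34. Their summed level was 99.5, 126 and 101 times the reference level on the P5, P7 wild-type and Runx2+/- arrays. Pdgfra, a receptor of mesenchymal cells, was 0.54 higher and Dcn (decorin) 0.22 higher. Chondrocyte markers had a genotype median of 0.94 over 7 genes and the epidermal and neural lists medians of -0.62 and -0.30 over 2 and 6 genes. The part of any of these in the factors' differences was not tested.

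**Figure D5:**
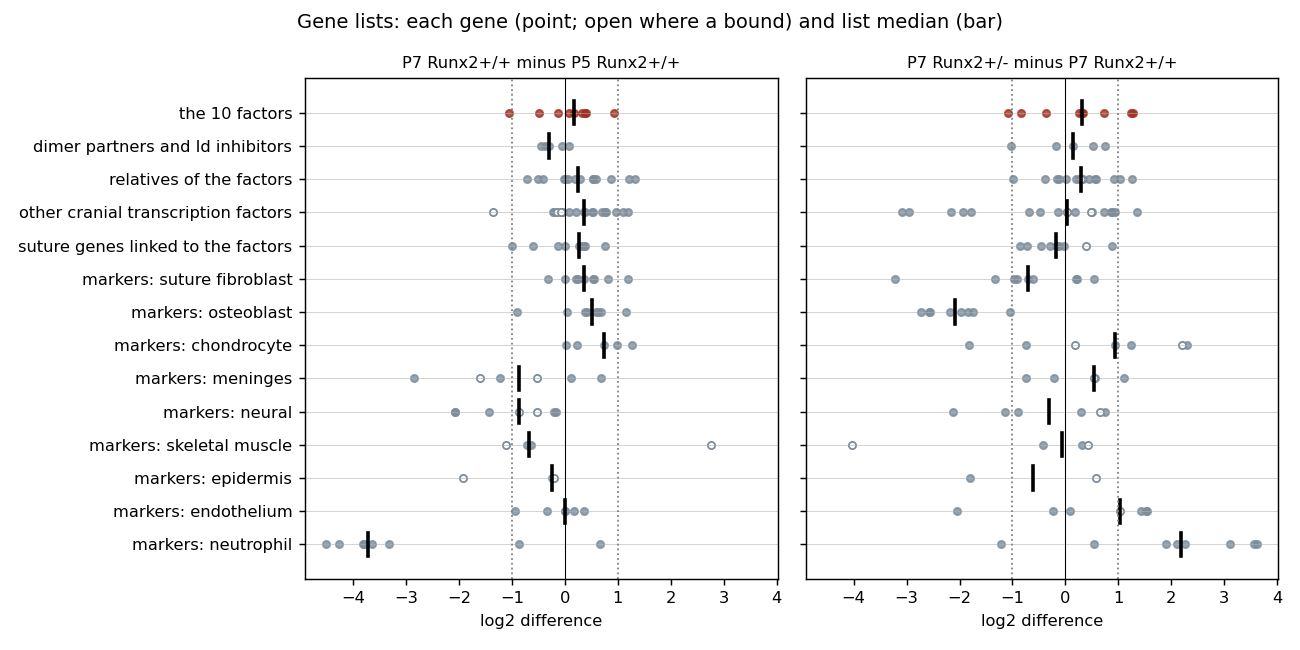
Log2 difference of each gene of each list (points, open where the value is a lower bound) for age (left) and genotype (right), with the list median as a bar and dotted lines at 2-fold. The factors (top row) have medians of 0.18 and 0.32, while osteoblast markers have a genotype median of -2.08 and neutrophil markers medians of -3.71 for age and 2.19 for genotype.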

How the data were processed

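Total RNA was extracted with ISOGEN, amplified and Cy3-labelled, per the labels' protocols, and each group has 1 Agilent array. The software was Feature Extraction, given as 10.7.1.1 in the file headers and 9.5.1.1 in the submitters' processing notes. Its processed signal, deposited as linear intensity, was already background-corrected, per the file headers. The authors' separate table of intensity values served as an alternative. How it was made is not given in the sources used here.

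Control spots and outlier spots were left out, and spots of a probe were averaged as log2 values. Because under 50% of probes were well above background on each array, each array was scaled to its 75th percentile over the 15853 probes detected on all arrays, and not over all probes. A probe that missed the background criterion entered at the lowest detected signal of its array, or at its own signal if higher. Where it was so on 1 array of a pair the difference is a lower bound, kept only where the detected array was the higher, and where it was so on both arrays there is no order. No spot was saturated. The calls have no test. Names came from RefSeq accessions (GRCm38.p6) for 27234 probes and otherwise from the files, and the factors' own names are those in the files. Probe coordinates are those of the files (mm9), and exon or UTR positions were not analysed here. The factors and gene lists were chosen with earlier results of these data known. Named are all factors, Runx2, and from each list up to 4 genes at least 2-fold apart whose probes agree in direction. Some genes of these lists are not reported here by name. Members of the fixed lists that are given with values below 2-fold were named after their values were seen. Tools were Python 3.11.15, R 4.3.3 and limma 3.58.1. The steps were run on simulated arrays with spot noise but without the spread between probes of a gene. That run checks the steps and not the differences reported here. The alternatives were other scalings, quantile normalization, cyclic loess, normexp with an offset of 50, other filters, other probe choices, the authors' values and thresholds of 1.5-fold and 3-fold. The number of arrays limits the precision.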

Additional observations from a re-analysis of the deposited data

How the results depend on the processing

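Of 178 single-factor values under the 10 alternatives that replace the scaling, background, filter, probe or values, 158 lay within the spot SD of the reported value, 17 lay outside it and 3 turned sign after a reported difference of at least 2-fold. Those 3 were Tcf12 for age, at 0.39 with the probe at base 4396, taken as nearest the 3′ end, and Twist2 and Foxc2 for genotype, at -0.32 and -0.18 after normexp. For factors with 1 probe the probe choices could not change the value, so those values count among the 158. Normexp moved the median of all probes measured on both arrays to 0.26 for age and -0.46 for genotype, and the factors' genotype median to -0.18. The mean over probes gave a genotype median of -0.059, and the P5 Runx2+/+ array in place of the P7 one, chosen after seeing the data, gave 0.56. The causes were not tested. The count of factors at least 2-fold lower for age was 1 and became 0 with scaling over all probes, cyclic loess, normexp, the mean over probes, the probe nearest the 3′ end and a 3-fold threshold. The count at least 2-fold higher for age was 0 and became 1 with scaling over all probes, with cyclic loess and with a 1.5-fold threshold. For genotype the count of 2 higher became 0 with normexp, a 3-fold threshold and a filter at 2 times the lowest detected signal, under which Twist2 and Foxc2 are lower bounds, and 3 at a 1.5-fold threshold. The count of 1 lower became 2 with cyclic loess, normexp and a 1.5-fold threshold, and 0 at 3-fold. No paired analysis was possible because each group has 1 array. Signal over background limits the values of Twist2, Foxc2 and Alx4 on the P7 Runx2+/+ array.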
